A study of Homo sapiens with 53 samples.

Results

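The peaks of Flag-tagged TET1, TET2 and TET3 in HEK293T cells treated with BPK-25 were placed on the CTCF and MBD3 peaks of cells given the same compound. Intervals that overlapped or touched were joined within each list, and every TET peak was put in 1 of 4 classes by an overlap of at least 1 bp: CTCF only, MBD3 only, both or neither. The BPK-25 lists gave 447 TET1, 509 TET2 and 13360 TET3 peaks, 14316 in all, out of 706206 joined peaks in the 10 lists of the series. The corresponding DMSO lists, used for comparison, held 21313 TET peaks.

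HEK293T is a human embryonic kidney line. The series has 53 samples in 18 groups, and its title concerns the NuRD complex at CTCF sites. Lines derived from HEK293T and carrying Flag on TET1, TET2 or TET3 received 30 µM BPK-25 for 72 h and were immunoprecipitated against Flag, and parental cells under the same treatment were immunoprecipitated against CTCF or MBD3. The same lines and antibodies were used after 72 h in the solvent DMSO. There were 3 labelled immunoprecipitates in each of the 5 BPK-25 groups and in each DMSO group except TET2, which has 2. Each group has 1 peak list for all its replicates, so no value below has a spread between replicates, and no difference could be tested. Intervals in the text are exact 95% intervals that cover counting error only.

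The labels do not say how the derived lines were made or whether each is 1 clone. The series as labelled has 0 Flag immunoprecipitates of the untagged parental line, so signal of the Flag antibody without a tagged protein was not measured. The CTCF and MBD3 groups share the parental inputs, whereas each TET line has inputs of its own. The genome background, taken as the lowest local background of a list, follows the depth of its pooled libraries. It was 1.75 fragments for TET1, 1.05 for TET2, 1.65 for TET3, 2.58 for CTCF and 2.57 for MBD3 under BPK-25, and at that background the lowest pileup in a TET list was 8 to 10 fragments. By this measure TET1 and TET3 were of like depth, although the TET1 list has 447 peaks and the TET3 list 13360, while TET2 was shallower. The TET2 list, with 509 peaks, was longer than that of TET1 and shorter than that of TET3. Against TET3, fewer TET2 sites and a shallower TET2 library cannot be told apart.

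The TET proteins are dioxygenases that oxidise 5-methylcytosine in DNA, a step towards its removal. CTCF is a zinc-finger protein that binds a long DNA motif and is found at insulators and where chromatin loops are anchored, and its binding at some sites is blocked by DNA methylation. MBD3 is a subunit of NuRD, a complex that joins nucleosome remodelling with histone deacetylation; unlike its relative MBD2, the mammalian protein does not bind methylated DNA strongly.

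Under BPK-25, most TET1 and TET2 peaks lay outside both partner lists, and TET3 peaks were split almost evenly. The neither class held 314 of 447 TET1 peaks, or 70.2% (65.8 to 74.5), 382 of 509 TET2 peaks, or 75% (71.1 to 78.8), and 6636 of 13360 TET3 peaks, or 49.7% (48.8 to 50.5). Peaks that did meet a partner mostly met both. The both class held 96 TET1 peaks, or 21.5% (17.8 to 25.6), 96 TET2 peaks, or 18.9% (15.6 to 22.5), and 4935 TET3 peaks, or 36.9% (36.1 to 37.8). Peaks on CTCF alone were 4.47% of TET1, 3.14% of TET2 and 5.52% of TET3, and peaks on MBD3 alone were 2.95% of TET2 and 7.87% of TET3 and 17 of 447 for TET1.

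The background for these shares comes from the partner lists themselves. BPK-25 CTCF peaks covered 2.83% of the bases of chromosomes 1 to 22 and X, and MBD3 peaks 2.91%. An interval of the median TET peak width touched a CTCF peak at 4.53% of positions for the TET1 width, 4.78% for TET2 and 4.52% for TET3, and an MBD3 peak at 4.59%, 4.84% and 4.58%. The observed shares on any CTCF peak were 26.0% for TET1 (21.9 to 30.3), 22% for TET2 (18.5 to 25.9) and 42.5% for TET3 (41.6 to 43.3), and those on any MBD3 peak were 25.3%, 21.8% and 44.8%. All 6 were thus above the share of positions touched. The 2 partner lists were themselves alike, since 69.0% of the CTCF peaks overlapped an MBD3 peak and 69.1% of the MBD3 peaks overlapped a CTCF peak. Among the 5673 TET3 peaks on CTCF, 4935 were also on MBD3, so overlap with CTCF and overlap with MBD3 were hardly separate measures. With the 50000 strongest CTCF and MBD3 peaks alone the both share was 10.5% for TET1, 9.04% for TET2 and 16.8% for TET3, and with TET summits within 200 bp of partner summits it was 14.5%, 10.4% and 22.9%.

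Some peaks lay at the edge of the 1 bp rule. Of the TET3 peaks on CTCF, 306 of 5673 overlapped it by less than 50 bp, and 263 further peaks ended within 50 bp of a CTCF peak without touching it. For MBD3 these numbers were 301 of 5986 and 233. The edge held a larger part of the shorter lists: for CTCF it was 10 of 116 and 10 further peaks in the TET1 list and 8 of 112 and 14 in the TET2 list, and for MBD3 11 of 113 and 8, and 11 of 111 and 17. Where TET3 overlapped CTCF, a median of 84.1% of the TET3 peak was covered, and where it overlapped MBD3 86.4%. The median covered share was 71.9% and 79.6% for TET1, and 66.7% and 69.4% for TET2.

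**Figure D1:**
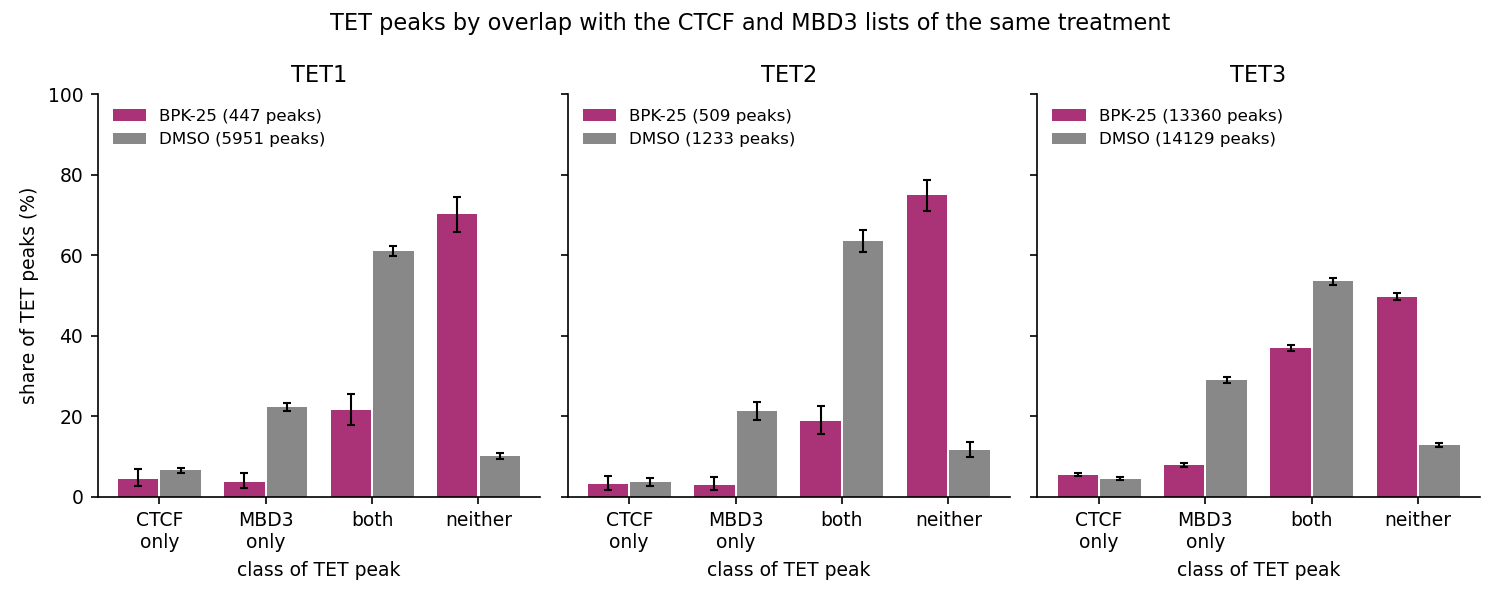
Share of TET peaks (%) in each of the 4 classes, with BPK-25 peaks on BPK-25 partner lists at the left of each pair and DMSO peaks on DMSO partner lists at the right. Whiskers are exact 95% intervals for counting error; the neither class is the tallest BPK-25 bar in each panel and is 12.9% or less under DMSO.

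The same placement in DMSO cells, with DMSO TET peaks on DMSO partner lists, gave another split. The TET1 neither share was 70.2% under BPK-25 and 10.2% under DMSO, that of TET2 75% and 11.7%, and that of TET3 49.7% and 12.9%. The both share of TET1 was 21.5% under BPK-25 and 61.0% under DMSO, that of TET2 18.9% and 63.5%, and that of TET3 36.9% and 53.5%. MBD3-only peaks differed in the same direction, with 17 of 447 TET1 peaks under BPK-25 and 1324 of 5951 under DMSO, 2.95% and 21.2% of TET2 peaks, and 7.87% and 29.1% of TET3 peaks. CTCF-only peaks were few in both treatments, with 4.47% under BPK-25 and 6.60% under DMSO in the TET1 lists, 3.14% and 3.57% in those of TET2, and 5.52% and 4.52% in those of TET3. Less genome was covered by the DMSO partner lists: CTCF peaks took 1.37% of bases and MBD3 peaks 1.15%. An interval of the DMSO median TET width touched a DMSO CTCF peak at 2.23% (TET1), 2.11% (TET2) and 2.26% (TET3) of positions, and a DMSO MBD3 peak at 1.86%, 1.76% and 1.88%. The higher neither share under BPK-25 thus stood beside partner lists that covered more of the genome. The DMSO partner lists were also less alike, as 36.9% of CTCF peaks overlapped MBD3 and 43.3% of MBD3 peaks overlapped CTCF. The CTCF list held 245419 peaks of median fold enrichment 3.71 under BPK-25 and 99587 of 11.3 under DMSO. The MBD3 list held 243213 peaks of 3.77 under BPK-25 and 82358 of 3.65 under DMSO. By fold enrichment the BPK-25 CTCF list was thus nearer to the BPK-25 MBD3 list than to the DMSO CTCF list.

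The BPK-25 TET peaks were then placed on the DMSO partner lists, to ask whether peaks with no partner under BPK-25 lay at sites occupied in DMSO cells. Widths of BPK-25 TET peaks touched a DMSO CTCF peak at 2.06% of positions for TET1 and TET3 and 2.17% for TET2, and a DMSO MBD3 peak at 1.72% and 1.81%. On these lists the neither share of the same peaks was 31.5% for TET1 (27.3 to 36.1), 39.7% for TET2 (35.4 to 44.1) and 22.1% for TET3 (21.4 to 22.8). The share on DMSO MBD3 peaks was 64.7% for TET1, 57.0% for TET2 and 65.7% for TET3, and that on DMSO CTCF peaks was 42.5%, 33.6% and 56.8%. BPK-25 TET peaks therefore met the partner lists of DMSO cells more often than those of cells given the compound, in all 3 TET lists. The same held for DMSO TET peaks. On the BPK-25 partner lists their neither share was 40.4% for TET1, 43.2% for TET2 and 37.7% for TET3. On the DMSO lists it was 10.2%, 11.7% and 12.9%. The DMSO partner lists were the deeper ones by genome background, and the part of depth in these placements was not tested.

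**Figure D2:**
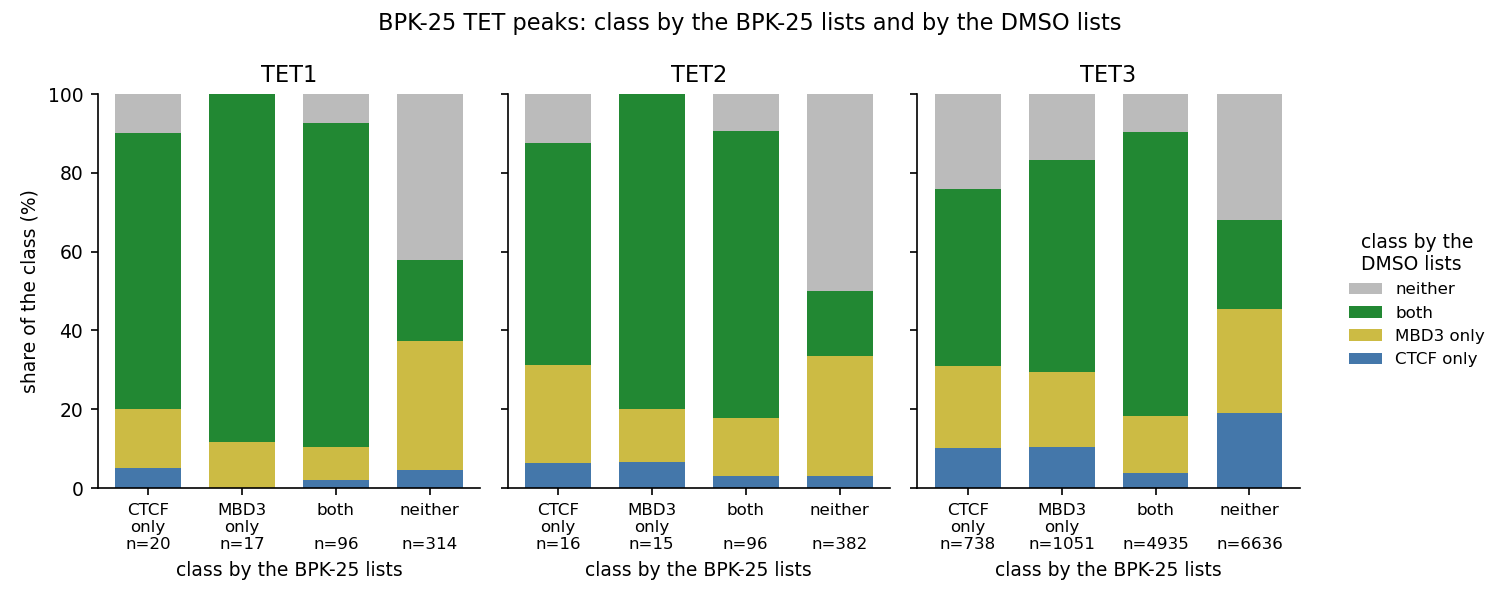
BPK-25 TET peaks grouped along the x axis by their class on the BPK-25 partner lists (n under each bar) and coloured by their class on the DMSO partner lists, as a share of each group (%). The neither group of TET1 and TET2 splits mainly between MBD3 only and neither on the DMSO lists, while that of TET3 also holds 19.1% on DMSO CTCF alone.

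Among the 314 TET1 peaks with no BPK-25 partner, 182 overlapped a DMSO CTCF or MBD3 peak, or 58.0% (52.3 to 63.5). MBD3 made up most of this, with 168 peaks on DMSO MBD3 and 79 on DMSO CTCF. Of the 382 such TET2 peaks 191 (44.9 to 55.1%) were on a DMSO partner, 179 of them on MBD3 and 75 on CTCF. Of the 6636 such TET3 peaks 4519, or 68.1% (67.0 to 69.2), were on a DMSO partner, with 3252 on MBD3 and 2765 on CTCF. The CTCF share of this class was thus 25.2% for TET1, 19.6% for TET2 and 41.7% for TET3.

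For TET1 and TET2 the peaks with no BPK-25 partner formed contrasting sets. The 103 TET1 peaks on DMSO MBD3 alone had a median fold enrichment of 7.27, a median distance of 29 bp to the DMSO MBD3 summit, and a TET1 peak in the DMSO list in 91.3%. The 116 TET2 peaks of this kind had a median fold enrichment of 8.79, a distance of 34 bp, and a DMSO TET2 peak in 75.9%. The 132 TET1 peaks on neither list of either treatment had a median fold enrichment of 2.83 at a local background 59.4 times the genome background, and 26.5% had a DMSO TET1 peak. The 191 such TET2 peaks had 2.3 at 107 times, and 30.9% had a DMSO TET2 peak. A high local background, here 20 or more times the genome background, held 79 of the 314 TET1 peaks with no BPK-25 partner. It held 151 of the 382 such TET2 peaks, and 11 TET1 and 14 TET2 peaks of the 96 in each both class. The CTCF-only class was also affected, with 5 of 20 TET1 and 5 of 16 TET2 peaks. On MBD3 alone it held 0 of 17 and 0 of 15. Without peaks of high local background the neither share was 66.8% for TET1 and 68.1% for TET2. Of the remaining neither peaks, 76.2% and 81.0% lay on a DMSO partner.

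TET3 peaks with no BPK-25 partner included a further set at CTCF sites that were strong in DMSO cells. On DMSO CTCF alone lay 1267 of the 6636, and their median distance to the DMSO CTCF summit was 17 bp. The CTCF fold enrichment there had a median of 65.6 in the DMSO list, whose overall median was 11.3. A TET3 peak in the DMSO list was present at 11.1% of these 1267. A further 1498 lay on both DMSO partners, 24 bp from the CTCF summit and 31 bp from the MBD3 summit, with a median DMSO CTCF fold enrichment of 66.5, and 38.1% had a DMSO TET3 peak. Strong DMSO CTCF was not particular to this class, since the 3559 TET3 peaks on both partners in both treatments had a median DMSO CTCF fold enrichment of 91.8 at 26 bp. The 566 on MBD3 alone under BPK-25 and on both under DMSO had 84.9 at 18 bp, and 14 TET1 peaks with no BPK-25 partner and DMSO CTCF alone had 73.0 at 45 bp. The 1754 on DMSO MBD3 alone lay 61 bp from its summit, and 52.5% had a DMSO TET3 peak. The 2117 on neither list of either treatment had a median TET3 fold enrichment of 4.16 and a local background of 1.10 times the genome background, so unlike those of TET1 and TET2 they did not lie in high background.

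Peaks with no BPK-25 partner were mostly not just outside one. The nearest CTCF or MBD3 summit lay at a median of 2533 bp for TET1, 3033.5 bp for TET2 and 2227 bp for TET3. A partner summit lay within 500 bp of 13.7% of these TET1 peaks, 12.8% of TET2 and 13.1% of TET3, and within 5000 bp of 58.6%, 51.8% and 67.6%. How far positions of the genome in general lie from a partner summit was not measured, so these distances have no background value.

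Where TET peaks did overlap a BPK-25 partner, the summits lay about 100 bp apart. The median distance to the CTCF summit was 99 bp for TET1 (53 to 130, 116 peaks), 133.5 bp for TET2 (103 to 184, 112 peaks) and 93 bp for TET3 (86 to 99, 5673 peaks). To the MBD3 summit it was 110 bp for TET1 (57 to 137, 113 peaks), 127 bp for TET2 (106 to 171, 111 peaks) and 82 bp for TET3 (76 to 87, 5986 peaks). Within 50 bp of the CTCF summit lay 39.7%, 28.6% and 38.0% of the overlapping TET1, TET2 and TET3 peaks, and within 50 bp of the MBD3 summit 37.2%, 26.1% and 40.5%. The median signed offset, in the direction of the genome coordinates, was between -6 and 2 bp in all 6 pairings. That direction does not follow the strand of a motif or gene, so a small signed median does not show centred summits. These medians use the strongest summit of each joined partner peak; with every listed partner summit the TET3 medians were 55 bp to CTCF and 51 bp to MBD3, and for TET3 peaks with a -log10 q of at least 5 they were 54 and 46 bp. With partners of a -log10 q of at least 10 the TET2 median to CTCF was 213 bp (63 peaks).

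The same BPK-25 TET summits lay nearer to some summits of the DMSO lists. TET3 was 22 bp from the DMSO CTCF summit (21 to 23, 7589 peaks), with 67.6% within 50 bp, and 46 bp from the DMSO MBD3 summit (44 to 49, 8776 peaks). At the 4148 TET3 peaks that overlapped CTCF in both treatments, the median was 73 bp to the BPK-25 summit and 26 bp to the DMSO summit, and the DMSO summit was the nearer one at 66.1% (64.7 to 67.6). The CTCF fold enrichment at these peaks had a median of 4.72 under BPK-25 and 87.0 under DMSO, and how far weaker summits are less well placed was not tested. At 5039 TET3 peaks on MBD3 in both treatments the medians were 79 bp and 46 bp, and the DMSO summit was nearer at 56.4% (55.0 to 57.8). TET1 lay 35 bp and TET2 55 bp from the DMSO MBD3 summit, but 85.5 bp and 167 bp from the DMSO CTCF summit. By these medians the nearer DMSO partner was CTCF for TET3 and MBD3 for TET1 and TET2. Peaks on CTCF in both treatments were 96 for TET1, with 44.8% nearer the DMSO summit (34.6 to 55.3), and 83 for TET2, with 38.6% (28.1 to 49.9). On MBD3 the DMSO summit was the nearer one more often, at 63.5% of 104 TET1 peaks (53.4 to 72.7) and 58.2% of 98 TET2 peaks (47.8 to 68.1).

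**Figure D3:**
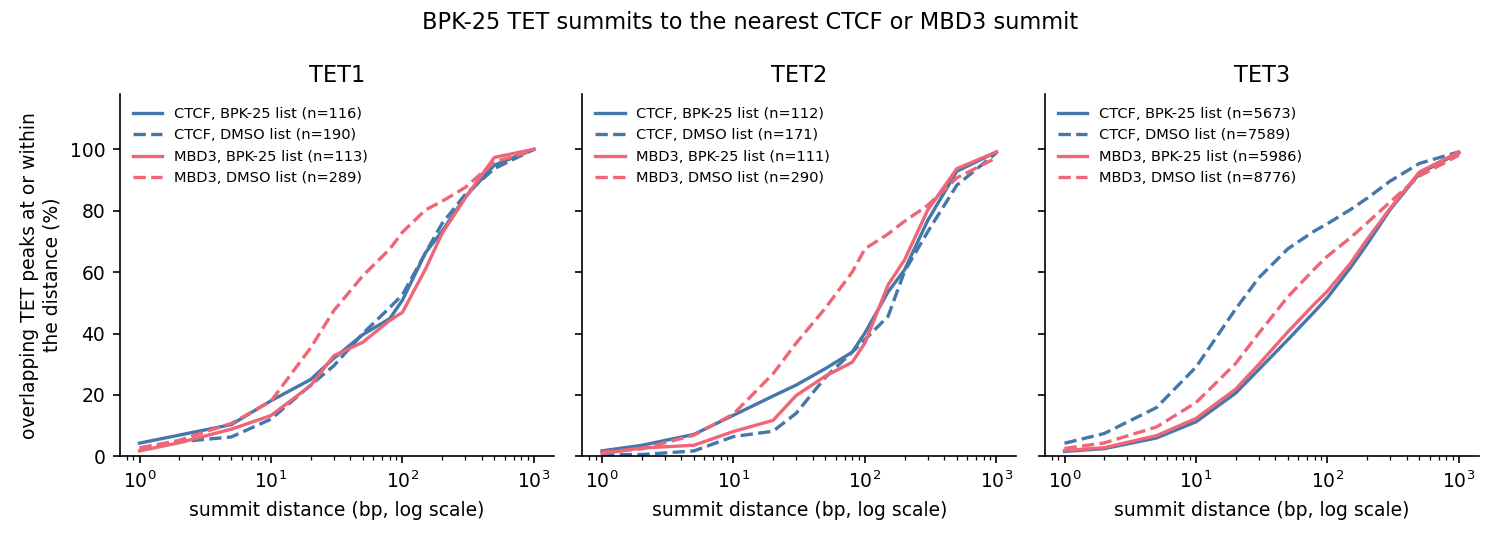
Cumulative share (%) of BPK-25 TET peaks overlapping a partner peak whose summit lies at or within a given distance (bp, log scale) of the nearest partner summit, for partner lists of both treatments. The dashed CTCF line of TET3 reaches 67.6% at 50 bp, where the solid CTCF line is at 38.0%; for TET1 and TET2 the dashed MBD3 line lies highest there.

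In the both class the partner summits lay close together, and the TET summit was nearer to CTCF about as often as to MBD3. The CTCF and MBD3 summits nearest to the TET summit were a median of 17 bp apart at TET1 peaks, 18 bp at TET2 peaks and 22 bp at TET3 peaks. The CTCF and MBD3 peaks overlapped each other inside the TET peak at all 96 peaks for TET1, all 96 for TET2 and 4921 of 4935 for TET3. The CTCF summit was the nearer one at 51.0% of the peaks for TET1 (40.6 to 61.4), 45.8% for TET2 (35.6 to 56.3) and 47.1% for TET3 (45.7 to 48.5). The CTCF and the MBD3 summit each lay within 50 bp of the TET summit at 34 TET1, 24 TET2 and 1529 TET3 peaks, out of 96, 96 and 4935. Fold enrichment of the partners was low and nearly equal, with medians at TET3 peaks of 4.73 for CTCF and 4.93 for MBD3.

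The both share of TET3 peaks was higher in each stronger range up to a -log10 q of 50, an order that TET1 and TET2 peaks did not show. Among TET3 peaks with a -log10 q up to 2, 26.1% were in the both class and 61.3% in the neither class. The both share was 30.3% at a -log10 q of 2 to 5, 37.8% at 5 to 10, 52.4% at 10 to 20 and 61.1% at 20 to 50, and the neither share was 57.3%, 47.7%, 31.8% and 29.7%. Above 50 the both share was lower and the neither share higher again, with 50.4% both and 43.1% neither among 123 peaks, of which 50 lay in high local background; without these it was 56.2% and 38.4% of 73. The neither share of TET1 lay between 64.4% and 80.4% in all 6 ranges and that of TET2 between 59.3% and 87.0%. Above 50, 53 of the 56 TET1 and 64 of the 71 TET2 peaks lay in high local background. Median fold enrichment of TET3 peaks was 5.29 in the both class and 4.65 in the neither class, whereas it was 5.18 and 5.15 for TET1 and 6.27 and 5.79 for TET2. Median widths were 222.5 bp for both and 214 bp for neither in the TET1 list, 253 and 244.5 bp in that of TET2, and 221 and 207 bp in that of TET3. Among the BPK-25 lists the widest class by its median was CTCF only for TET2, with 312.5 bp over 16 peaks.

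**Figure D4:**
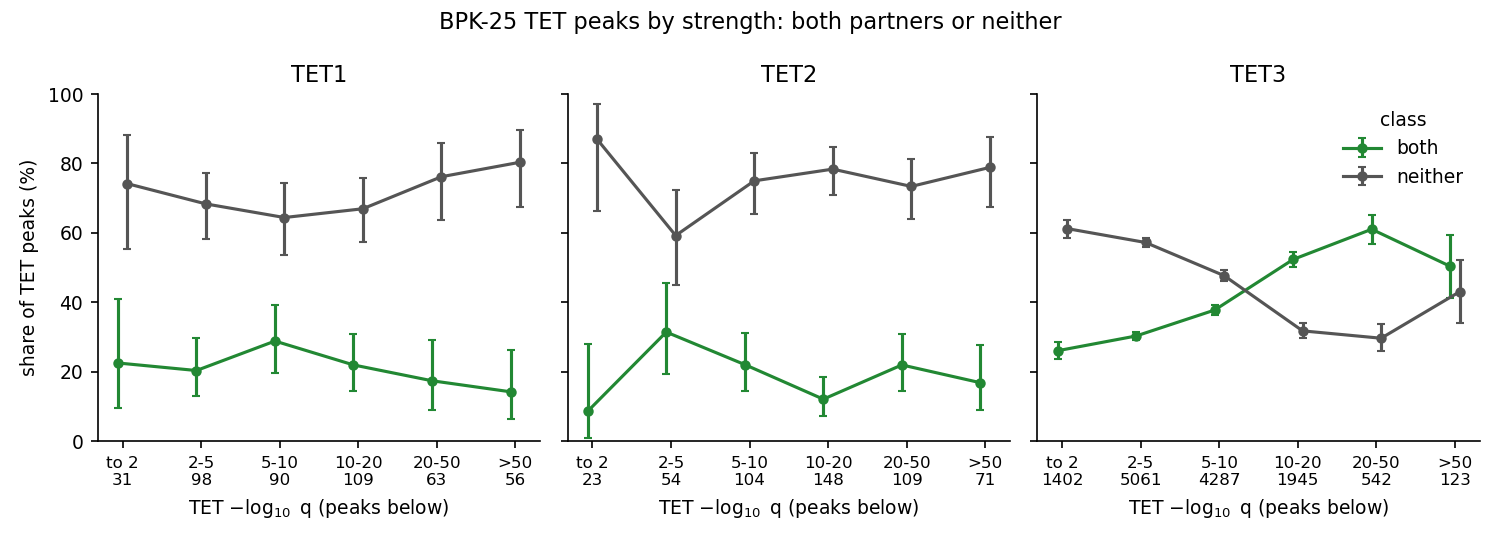
Share (%) of BPK-25 TET peaks in the both and neither classes by range of the TET peak's -log10 q, with the number of peaks under each range and exact 95% intervals. The lines cross for TET3 between the ranges of 5 to 10 and 10 to 20, and stay apart for TET1 and TET2.

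Seen from the partners, strong CTCF and MBD3 peaks held a TET3 peak more often than weak ones. The TET3 list has 13360 peaks, and its length limits the share of partner peaks that can hold one. Of the 245419 BPK-25 CTCF peaks, 5657 held a TET3 peak, or 2.31%, and of the 243213 MBD3 peaks 5979, or 2.46%. In the weakest decile of the CTCF list by -log10 q the share was 0.774% (0.668 to 0.892) and in the strongest 7.05% (6.73 to 7.38). For MBD3 it was 0.695% (0.594 to 0.807) and 7.73% (7.40 to 8.07). CTCF peaks that overlapped MBD3 held TET3 in 2.99% and those without MBD3 in 0.788%. MBD3 peaks with CTCF held TET3 in 3.05% and those without in 1.14%. The partner peaks with the other factor were stronger, with a median CTCF fold enrichment of 4.10 against 3.15 and a median MBD3 fold enrichment of 4.17 against 3.19, and the part of that difference in the shares was not tested. Partner peaks nearest by summit to overlapping TET3 peaks were also wide, with medians of 375 bp for CTCF and 382 bp for MBD3. The whole lists had 253 and 261 bp. The part of peak width in the shares by decile and by other factor was not tested.

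**Figure D5:**
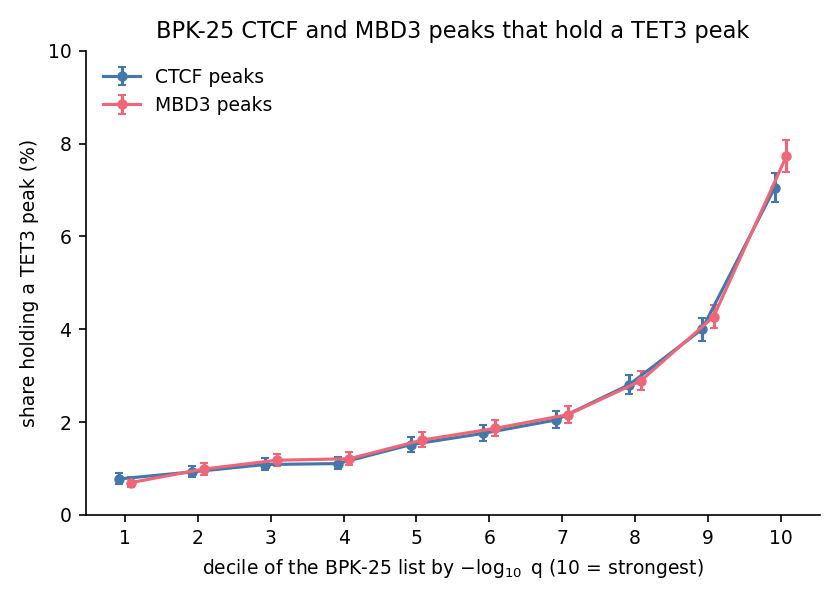
Share (%) of BPK-25 CTCF and MBD3 peaks that hold a BPK-25 TET3 peak, by decile of each partner list from the weakest at the left to the strongest at the right, with exact 95% intervals. Both lines reach their highest value in the strongest decile, 7.05% for CTCF and 7.73% for MBD3.

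The fold enrichment of TET3 varied little with that of its BPK-25 partners. Across overlapping peaks outside high local background, Spearman's rho was 0.05 with BPK-25 CTCF (5624 peaks), 0.10 with BPK-25 MBD3 (5940), 0.40 with DMSO CTCF (7574) and 0.15 with DMSO MBD3 (8743). For TET1 it was 0.38 with BPK-25 CTCF (100 peaks) and -0.25 with DMSO CTCF (184). With MBD3 the TET1 values were 0.28 for the BPK-25 list (102) and 0.08 for the DMSO list (280). TET2 had -0.10 with BPK-25 CTCF (93), 0.03 with DMSO CTCF (165), -0.02 with BPK-25 MBD3 (97) and -0.06 with DMSO MBD3 (280). The points are sites of shared libraries, and the values are descriptions.

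TET1 and TET2 peaks were largely a subset of the TET3 sites. A TET3 peak overlapped 353 of 447 TET1 peaks and 376 of 509 TET2 peaks, and 242 TET1 and 244 TET2 peaks were held by all 3 lists, against 243 of 13360 TET3 peaks. TET1 and TET2 peaks on a BPK-25 partner nearly all had TET3 too: 93 of the 96 TET1 and 89 of the 96 TET2 peaks in the both class did, against 224 of 314 and 257 of 382 in the neither class. At the sites held by all 3 lists the neither share was 70.7% of the TET1 peaks, 70.1% of the TET2 peaks and 63.8% of the TET3 peaks. High local background held 55 of these 242 TET1 peaks, 53 of the 244 TET2 peaks and 57 of the 243 TET3 peaks. The 12880 TET3 peaks with no TET1 or TET2 peak had a neither share of 49.4%, and 35 of them lay in high local background. The part of high local background in the shares at shared sites was not tested. Of the 59 TET1 peaks with no other TET peak 56 were in the neither class, and of the 100 such TET2 peaks 93, of which 81 of the 100 lay in high local background.

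Whether a TET peak was also present in DMSO cells varied with class. Of the TET3 peaks in the both class 42.7% (41.3 to 44.1) overlapped a DMSO TET3 peak, against 28.3% (27.2 to 29.4) in the neither class. For TET2 the shares were 80.2% (70.8 to 87.6) and 52.1% (47.0 to 57.2), and for TET1 68.8% (58.5 to 77.8) and 57.6% (52.0 to 63.2). TET3 peaks on CTCF alone had 31.6% and those on MBD3 alone 33.5%. The neither classes were mixed. Among TET1 neither peaks the share was 91.3% of 103 on DMSO MBD3 alone and 75.4% of 65 on both DMSO partners. It was 21.4% of 14 on DMSO CTCF alone and 26.5% of 132 on neither DMSO list. For TET2 these were 75.9% of 116, 77.8% of 63, 25% of 12 and 30.9% of 191. High local background held 79 of 314 TET1 and 151 of 382 TET2 neither peaks. Its part in these shares was not tested.

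Single regions show these classes, in hg19 coordinates. They come from the 3 peaks of highest -log10 q per TET list and class on chromosomes 1 to 22 and X with a local background under 20 times the genome background. The first TET3 peak of the neither class, chr17:1372507-1372924, had a TET3 fold enrichment of 32.1 under BPK-25 and 64.3 under DMSO. TET2 had 19.8 and 50.4 there, and the TET1 BPK-25 list has no peak. The nearest BPK-25 summits, CTCF at 736 bp and MBD3 at 691 bp, lay outside the peak, while a DMSO MBD3 summit of fold enrichment 4.57 lay 24 bp away. A second neither region, chr6:27655868-27656160 in the TET2 list, had fold enrichments of 6.94 for TET1, 20.5 for TET2 and 19.7 for TET3. The BPK-25 CTCF and MBD3 summits lay 600 and 605 bp off, and in DMSO cells CTCF and MBD3 had summits 47 and 55 bp away with fold enrichments of 2.61 and 8.07. The peak at chr1:567876-568176 was in the neither class in all 3 lists, with 11.3 for TET1, 8.20 for TET2 and 8.08 for TET3. No DMSO TET list has a peak there, no partner summit of either treatment lay within 5000 bp, and the local background in the TET1 list was 11.4 times the genome background.

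In the both class, chr9:998580-999027 had fold enrichments of 13.1 for TET1 and 22.1 for TET3 and no TET2 peak. The TET1 summit lay 18 bp from a BPK-25 CTCF summit of fold enrichment 8.48 and 3 bp from an MBD3 summit of 10.1. In DMSO cells CTCF reached 242 there, 6 bp from the TET1 summit, and MBD3 8.87. At chr19:48423323-48423718 the TET3 fold enrichment was 19.6 under BPK-25 and 3.71 under DMSO, and the BPK-25 CTCF and MBD3 summits lay 5 and 7 bp away with fold enrichments of 4.12 and 3.91. TET1 had 7.34 and TET2 5.76 at this site. At chr15:89878211-89878561 all 3 TET proteins had a peak, with 12.4 for TET1, 12.1 for TET2 and 26.0 for TET3, but the partner summits were farther from TET1, at 319 bp for CTCF and 338 bp for MBD3.

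The classes with 1 partner were less clear in single regions. At chr5:180528716-180529442, on CTCF alone in all 3 TET lists, fold enrichments were 8.14 for TET1, 10.7 for TET2 and 18.6 for TET3, and the CTCF summit of fold enrichment 5.32 lay 214 bp from that of TET3. In DMSO cells the region met both partners, with the MBD3 summit 62 bp and the CTCF summit 195 bp from TET3. At chr10:73808343-73808580, on MBD3 alone, TET3 had 19.7 and no peak in the DMSO list, and the BPK-25 MBD3 summit of fold enrichment 4.79 lay 6 bp away. The nearest BPK-25 CTCF summit was 4184 bp off, whereas the DMSO CTCF list had a summit of fold enrichment 178 at 14 bp. At chr16:22206952-22207229, also on MBD3 alone, TET1 had 11.1, TET2 11.3 and TET3 18.1, with the MBD3 summit 373 bp from that of TET1.

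Regions of high local background were placed by the same rule and rank high by -log10 q. At chr1:121484397-121485408 the TET1 local background was 3904 times the genome background and the fold enrichment 2.02, and the peak was on CTCF alone, whose own fold enrichment there was 1.03. The TET3 peak at chr6:74229760-74230962 had 16.3 at a background of 431 times and lay in the both class, 200 bp from the CTCF and 199 bp from the MBD3 summit. Another, chr2:74327512-74329312, had 7.84 at 706 times and was also in the both class. The pileups at these TET3 summits were 11607 and 9112 fragments. Whether these peaks mark TET3 binding was not tested. The part of the local background in these placements was not tested.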

How the data were processed

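Paired-end ChIP-seq peak lists, 1 per target and treatment, were used as deposited. Per the submitters' processing notes, the tools include Bowtie2 2.3.4, SAMtools 1.9, MACS2 2.1.2 and bedtools 2.25.0 and the build is hg19; their settings are not given in those notes as used here. The deposited lists hold, per summit, the authors' fold enrichment (a ratio), -log10 values of the authors' p-value and q-value, a display score equal to 10 times the -log10 q, and the offset of the summit in bp. The names of the lists put all replicates of a group together against a control.

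Intervals that overlapped or touched were joined, and each peak kept the summit of highest -log10 q. Pileup n and local background b at a summit were solved from fold = (n + 1)/(b + 1) and the Poisson -log10 p; all pileups under 200 fell within 0.02 of a whole number. Overlap, distances and counts were computed in Python 3.11.15 with numpy 2.4.6, pandas 2.3.3 and scipy 1.17.1, and the scripts were tested on simulated lists. Shares carry Clopper-Pearson intervals and medians order-statistic intervals, both at 95%. No test between treatments was possible with 1 list each.

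Per TET list, regions were taken from the 3 peaks of highest -log10 q per class and the 2 highest of high local background. Members, classes and rules were chosen with earlier results of these data known. Alternatives changed the overlap rule, thresholds, joining and partner lists. Sequences and gene names were not used here, since no annotation of the lists' build was at hand. All column values of the 10 lists were used by target and treatment, and the TET2 DMSO list, named for 3 replicates, was used as deposited.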

Additional observations from a re-analysis of the deposited data

How the results depend on the processing

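The 12 class shares and 6 median distances were recomputed under those of 11 alternatives that apply to each, and 85 of 144 values stayed inside the 95% interval of the value in the report. Restricting to chromosomes 1 to 22 and X, or joining intervals within 500 bp, moved none of the 12 shares outside it; the distances were not recomputed under these. With 50% of the TET peak covered, TET1 gave 2.68% CTCF only, 15.7% both and 79.0% neither, TET2 1.77%, 12.6% and 82.5%, and TET3 28.4% both and 58.5% neither. With summits within 200 bp, both and neither were 14.5% and 76.7% in the TET1 list, 10.4% and 83.1% in that of TET2 and 22.9% and 61.4% in that of TET3, which had 6.71% CTCF only and 8.97% MBD3 only. With partner peaks of a -log10 q of at least 10 they were 10.3% and 81.4%, 8.84% and 84.3%, and 16.5% and 73.2%, with 3.9% CTCF only and 6.45% MBD3 only for TET3. The distances were then 213 bp for TET2 to CTCF and, for TET3, 133 bp to CTCF and 110 bp to MBD3. With the 50000 strongest partner peaks, both and neither were 10.5% and 81.4%, 9.04% and 84.3%, and 16.8% and 73.0%, with 4.30% and 5.89% on 1 partner for TET3. TET3 peaks of a -log10 q of at least 5 gave 44.0% both, 41.7% neither and 8.44% MBD3 only, and distances of 54 and 46 bp; at 10 or more they gave 54.1%, 31.9% and 8.74%. Without high local background TET2 had 24.2% both and 68.1% neither. With every listed partner summit, distances to CTCF and MBD3 were 97.5 and 94 bp in the TET2 list and 55 and 51 bp in the TET3 list. On the DMSO lists MBD3 only, both and neither were 26.0%, 38.7% and 31.5% in the TET1 list, 26.7%, 30.3% and 39.7% in the TET2 list, and 21.1%, 44.6% and 22.1% in the TET3 list, with 12.2% CTCF only. The cause of these differences was not tested.

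No paired analysis was possible because each list pools the replicates of its group, and for the same reason leaving out a replicate was not run. The lowest pileup listed, 8 to 10 fragments in the TET lists under BPK-25, limits which weak sites are listed.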

Other observations

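TET1 and TET2 peaks under BPK-25 were crowded in a few megabases, counted outside high local background on chromosomes 1 to 22 and X. The megabase from 27 to 28 Mb of chromosome 6 held 32 TET1, 41 TET2 and 89 TET3 peaks, and the one from 26 to 27 Mb held 25, 28 and 66. All but 1 of these TET1 peaks and all of these TET2 peaks were in the neither class, as were 68 of the 89 and 46 of the 66 TET3 peaks. BPK-25 CTCF and MBD3 peaks were present in the same megabases, 96 and 91 in the first and 90 and 86 in the second. Of the TET1 peaks 28 of 32 and 23 of 25 overlapped a DMSO MBD3 peak, and of the TET2 peaks 34 of 41 and 25 of 28. Chromosome 6 as a whole held 19.9% of the TET1, 24.8% of the TET2 and 8.16% of the TET3 peaks outside high local background, against 5.64% of the span of these chromosomes.

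Other megabases had the opposite placement for some of the lists. From 50 to 51 Mb of chromosome 19, 8 of 10 TET1 and 9 of 11 TET2 peaks were in the both class. Of the 44 TET3 peaks there, 14 were in the both class and 25 in the neither class. This megabase held 388 BPK-25 CTCF and 376 MBD3 peaks, more than those of chromosome 6, and the part of this in the placement was not tested. From 114 to 115 Mb of chromosome X, 36 of 36 TET3 peaks were in the both class, with a median TET3 fold enrichment of 4.34, and all 36 overlapped a DMSO MBD3 peak. These windows were picked for their number of TET peaks, and their classes are descriptions of single regions.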
